A study of Caenorhabditis elegans with 10 samples.

Results

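Meiotic chromosome and DNA repair genes were followed through an immunoprecipitation of DLC-1 from *Caenorhabditis elegans*. The members were 59 genes of cohesin and condensin, the chromosome axis, synapsis, crossover formation and the response to DNA damage, chosen by name, and 20 of them appear among the 2732 genes that the authors' deposited table lists as enriched. The comparison is between 5 FLAG immunoprecipitates and 5 inputs from synchronized young adult worms of a 3xFLAG::DLC-1 strain, so every sample carries the tagged protein, and an untagged control was not analysed here. The extracts came from whole worms. Input libraries were primed with oligo-dT and the immunoprecipitated RNA was not enriched, so library preparation and immunoprecipitation cannot be told apart. A gene is called listed when its RNA was over 2-fold higher in immunoprecipitate than in input at an adjusted p under 0.01 by the authors' one-sided test.

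DLC-1 belongs to the LC8 family of light chains, small dimeric proteins that bind short motifs in dynein and in a wide range of other partners. In the worm germline, cohesin rings hold sister chromatids together, axis proteins of the HORMA family assemble along them, and SYP proteins join homologous chromosomes lengthwise in the synaptonemal complex. SPO-11 then cuts the DNA, and recombination proteins repair the cuts, some of them as crossovers. Mismatch repair, the Fanconi anaemia pathway, end joining and the checkpoint kinases act on DNA damage in germ cells and in other dividing cells. In what follows the measured quantity is the RNA of each gene, not its protein.

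Genes for both cohesin ATPases, for the condensin ATPase SMC-4, for several repair enzymes and for the checkpoint kinases ATM and ATR were listed, whereas the genes for the axis and for the central region of the synaptonemal complex were not. The 20 listed members are 33.9% of the 59, and 13.4% of the 20328 genes that the authors tested are listed. Against the 19983 protein-coding genes of the reference the listed share is 10.6%, a background that includes genes silent in adults. By subgroup, 6 of 12 cohesin, condensin and SMC-5/6 genes, 6 of 14 DNA repair genes, 5 of 12 genes of break formation and crossover, 2 of 7 checkpoint genes, 1 of 10 genes of pairing and synapsis and 0 of 4 axis genes were listed. No test was made of the differences between these shares. With 13.4% of all tested genes listed, 0 of 4 axis genes and 1 of 10 pairing and synapsis genes are near the background. Those counts do not set the axis and synapsis genes apart from genes at large. The 39 members not listed have no values here: their RNA may have been unchanged, lower, less than 2-fold higher or too scarce to test. Passing the authors' adjusted p of 0.01 at any fold were 17.2% of the tested genes; 762 of these are not in the table, and unlisted members may be among them.

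**Figure D1:**
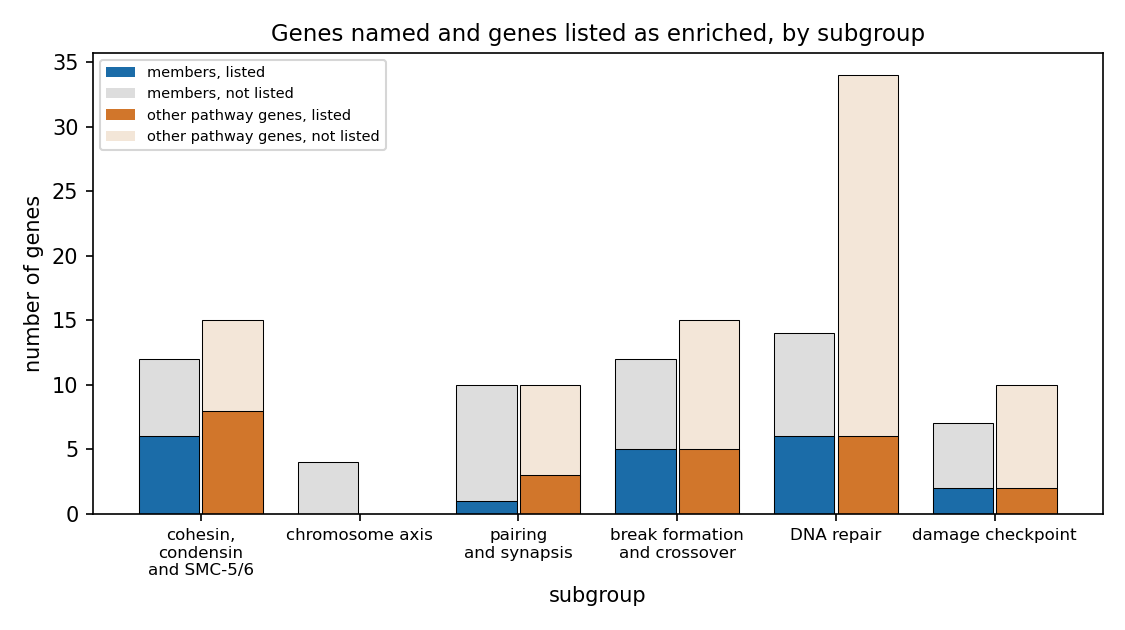
Number of genes (vertical axis) in each subgroup (horizontal axis), with listed genes in the dark lower part of each bar and genes not listed in the pale upper part, for the 59 members and for the 84 other genes of the same pathways described further on. The axis bar has no dark part, and the cohesin, condensin and SMC-5/6 bar is dark for 6 of its 12 genes.

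The listed members had modest folds. The authors' deposited table gives them a median log2 fold change of 1.37, or 2.58-fold, and values from 1.05 to 3.59, while the 2116 listed protein-coding genes had a median of 1.81, or 3.52-fold. Of the 20, 16 lay below that protein-coding median and 9 lay below its first quartile of 1.35. Only *chk-2*, *atm-1* and *polq-1* reached 4-fold, 3 of the 20, where 42.3% of listed protein-coding genes and 7.21% of all tested genes did. The members also had smaller errors, with a median standard error (SE) of 0.16 on the log2 scale against 0.26 for listed protein-coding genes. Their means had a median of 888 normalized counts against 375 for listed protein-coding genes, and across the 20 members, which share their libraries, SE and mean had a Spearman's rho of -0.50. Of the 20, 19 had a mean of at least 100 normalized counts and 19 an adjusted p under 0.001, which 8.24% and 11.6% of all tested genes had in the table. These medians describe genes that had already passed the authors' selection and are no evidence of enrichment for the members that passed.

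A 2-fold threshold on an estimate leaves in genes whose error reaches below it, so each listed fold was also tested against a 2-fold change. In a one-sided normal test on the authors' fold change and SE, 8 of the 20 passed a Benjamini-Hochberg adjusted p of 0.01 over the 20328 tested genes, and 6.64% of all tested genes did. Among listed protein-coding genes the share past that test was 46.9%. The 8 were *chk-2*, *atm-1*, *polq-1*, *smc-4*, *rec-8*, *msh-6*, *fcd-2* and *scc-3*. For 14 of the 20 the 95% interval of the fold, from the authors' SE, lay wholly above 2-fold. The share of other genes with such an interval is not given here, so this count has no background to be read against.

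**Figure D2:**
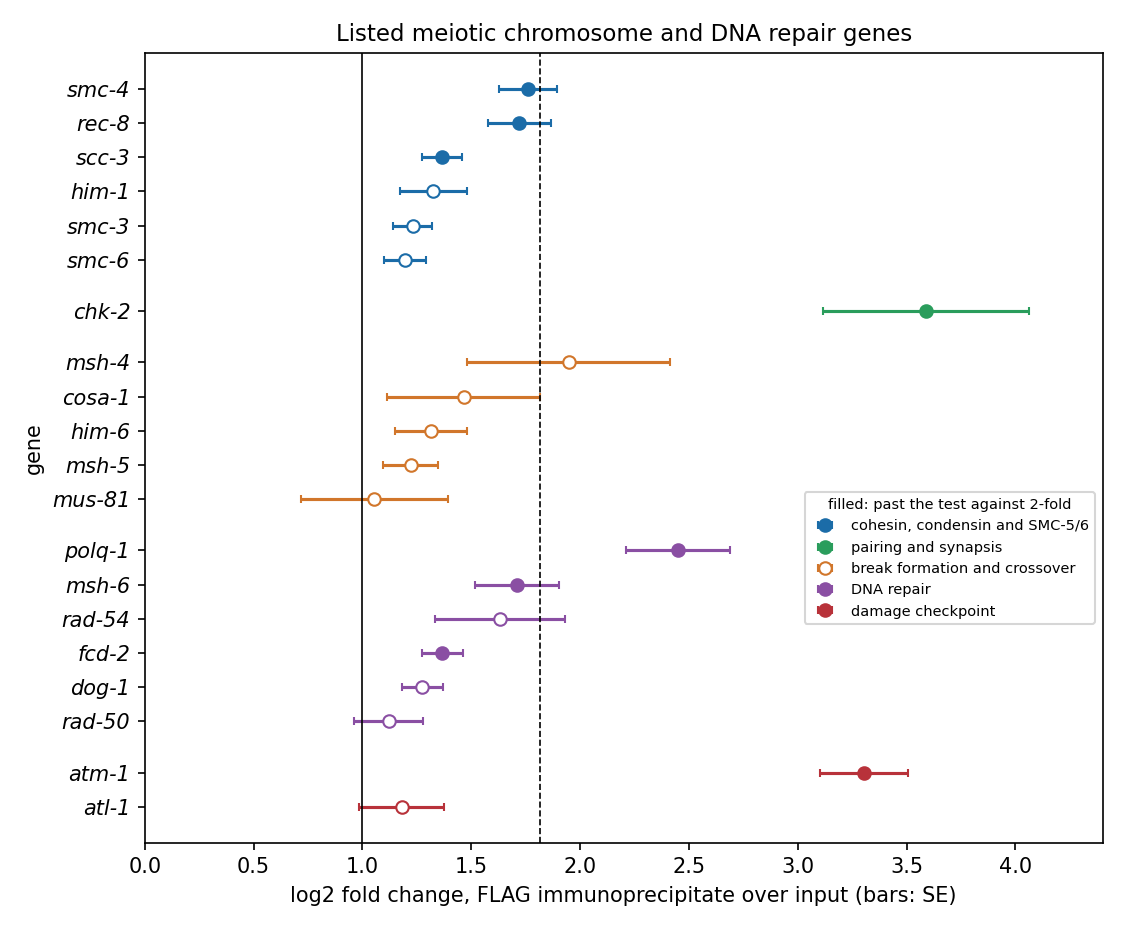
Log2 fold change of immunoprecipitate over input (horizontal axis) for each of the 20 listed members (vertical axis), coloured by subgroup, with bars of 1 SE from the authors' deposited table. Filled points passed the test against 2-fold, the solid line marks the threshold at a log2 fold change of 1 and the dashed line the median of listed protein-coding genes at 1.81; *chk-2*, *atm-1* and *polq-1* stand to the right and most other points lie between the lines.

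Cohesin is built from a pair of SMC ATPases, a kleisin that closes the ring and an SCC-3 subunit bound to the kleisin. Both ATPase genes were listed: *him-1*, which encodes SMC1, had a log2 fold change of 1.33 (SE 0.15) and *smc-3* one of 1.23 (SE 0.089) in the authors' deposited table. Their intervals overlap, from 2.04- to 3.09-fold for *him-1* and from 2.08- to 2.65-fold for *smc-3*. The gene for the SCC-3 subunit lay close to them, at a log2 fold change of 1.37 (SE 0.090) in the authors' deposited table, or 2.58-fold. Of the kleisin genes named as members, the meiosis-specific *rec-8* was listed, with a log2 fold change of 1.72 (SE 0.15) and an interval of 2.71- to 4.02-fold in the authors' deposited table. The other meiotic kleisin genes, *coh-3* and *coh-4*, and the mitotic *scc-1* were not listed, nor was the cohesin loader gene *scc-2*. COH-3 and COH-4 are close copies of each other, and how the authors' counting treated reads shared by such copies is not given in the sources used here. A further kleisin gene outside the members, *coh-1*, was picked out after its values were seen: it had a log2 fold change of 1.95 (SE 0.17) in the authors' deposited table and passed the test against 2-fold.

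The condensins compact chromosomes for division and, in a form specialised for the X chromosome, lower its expression in hermaphrodites. The condensin ATPase gene *smc-4* had a log2 fold change of 1.76 (SE 0.13) and a mean of 1823 normalized counts per the authors' deposited table, the highest fold of its subgroup. Its partner in the complex, *mix-1*, was not listed. Of the SMC-5/6 pair, which works in repair between sister chromatids, *smc-6* had a log2 fold change of 1.20 (SE 0.095) in the authors' deposited table and *smc-5* was not listed. The 6 listed members of this subgroup therefore spanned 1.20 to 1.76 in log2 fold change, with means from 554 to 2409 normalized counts, and 3 of them passed the test against 2-fold.

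No axis gene was listed: *him-3*, *htp-1*, *htp-2* and *htp-3*, which encode the HORMA proteins of the meiotic axis, have no values here. HTP-1 and HTP-2 are close copies, so reads may have been shared between them. Of the pairing and synapsis genes, *syp-1*, *syp-2*, *syp-3* and *syp-4* of the synaptonemal complex were not listed, nor were *him-8*, *zim-1*, *zim-2* and *zim-3*, zinc finger genes whose proteins bind the pairing centres, nor *him-19*. The exception was *chk-2*, the gene of the kinase that starts homologue pairing and break formation at meiotic entry. It had the highest fold of all members, a log2 fold change of 3.59 (SE 0.47), or 12.04-fold with an interval of 6.33- to 22.9-fold, and a mean of 197 normalized counts per the authors' deposited table. Its rank by fold was 267 among the 2116 listed protein-coding genes. The gene spans 19908086 to 19916023 of chromosome V (WBcel235). A 21-base non-coding RNA gene, Y60A3A.29, lies inside it and is itself listed. The authors' deposited table gives it a mean of 2.08 normalized counts, far below that of *chk-2*, and a log2 fold change of 4.60 (SE 1.45).

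Of the genes that make breaks and turn them into crossovers, the listed ones were *cosa-1*, *msh-5*, *him-6*, *mus-81* and an entry named *msh-4*. *cosa-1*, which encodes a cyclin-like protein that marks crossover sites, had a log2 fold change of 1.46 (SE 0.35) and a mean of 127 normalized counts per the authors' deposited table. *msh-5*, whose product forms the crossover-specific MutS dimer, had one of 1.22 (SE 0.13), and *him-6*, the worm BLM helicase gene, one of 1.31 (SE 0.17) in the authors' deposited table. *mus-81*, for a nuclease that resolves recombination intermediates, was the member closest to the threshold, with a log2 fold change of 1.05 (SE 0.34), an interval of 1.31- to 3.29-fold and an adjusted p of 0.00572 (the authors' one-sided test with Benjamini-Hochberg adjustment) in the authors' deposited table. None of the 5 listed genes of this subgroup passed the test against 2-fold. *spo-11*, for the enzyme that makes the breaks, was not listed. Neither were *him-5*, *him-17* and *xnd-1*, which promote breaks, *zhp-3*, which acts with COSA-1, *him-18* or the nuclease gene *xpf-1*.

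The entry named *msh-4* in the authors' deposited table does not stand for the crossover factor. In the reference, *msh-4* is the locus T02G5.6, annotated as a pseudogene of 722 bp at 7077848 to 7078569 of chromosome II, and the gene of the worm MSH-4 protein is known as *him-14*. *him-14* lies nearby, at 7065020 to 7069966, and was not listed, as a look made after the values were seen showed. The pseudogene had a log2 fold change of 1.95 (SE 0.47) on a mean of 17.5 normalized counts per the authors' deposited table, the lowest mean of all listed members. Without it, 19 of 58 members were listed, or 32.8%, and 4 of 11 in the crossover subgroup. Of the genes for the MSH-4 and MSH-5 dimer, only that of MSH-5 was therefore listed.

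Repair genes of several pathways were listed. The highest of them, *polq-1*, encodes polymerase theta, which joins broken ends at short matching stretches. It had a log2 fold change of 2.45 (SE 0.24), or 5.47-fold with an interval of 3.96- to 7.56-fold, and a mean of 1041 normalized counts per the authors' deposited table. The gene spans 5791119 to 5803160 of chromosome III (WBcel235). *msh-6*, for the mismatch-recognition partner of MSH-2, had a log2 fold change of 1.71 (SE 0.19) in the authors' deposited table, and *msh-2* itself was not listed.

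For the Fanconi anaemia pathway, which handles crosslinks and stalled forks, *fcd-2* had a log2 fold change of 1.37 (SE 0.095) and the helicase gene *dog-1* one of 1.28 (SE 0.093) in the authors' deposited table. Their folds of 2.58 and 2.42 lay within each other's intervals. *rad-54*, whose product assists the RAD-51 recombinase, had a log2 fold change of 1.63 (SE 0.30) on a mean of 246 normalized counts per the authors' deposited table, and *rad-51* was not listed. The name *rad-54* did not match the reference, which holds *rad-54.L*, *rad-54.L2* and *rad-54.B*, so no position is given for it. *rad-50*, for the SMC-like subunit of the complex that processes break ends, had a log2 fold change of 1.12 (SE 0.16) in the authors' deposited table, and its partners *mre-11* and *com-1* were not listed. Likewise absent were *brc-1*, *brd-1* and *brc-2*, the worm BRCA1, BARD1 and BRCA2 genes, and the helicase gene *rtel-1*.

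The damage checkpoint starts with the kinases ATM and ATR, and both genes were listed. *atm-1* had a log2 fold change of 3.30 (SE 0.20), or 9.88-fold with an interval of 7.49- to 13.03-fold, and a mean of 975 normalized counts per the authors' deposited table. It had the second-highest fold of the members and the lowest p in the test against 2-fold (Benjamini-Hochberg adjusted p = 7.81e-28). *atl-1*, for ATR, had a log2 fold change of 1.18 (SE 0.19) in the authors' deposited table, and its interval of 1.74- to 2.94-fold does not overlap that of *atm-1*. Both values come from the same libraries, and the difference between them was not tested. The genes for their partners and targets, *hus-1* and *mrt-2* of the checkpoint clamp, *clk-2*, the effector kinase *chk-1* and the p53-related *cep-1*, were not listed.

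**Figure D3:**
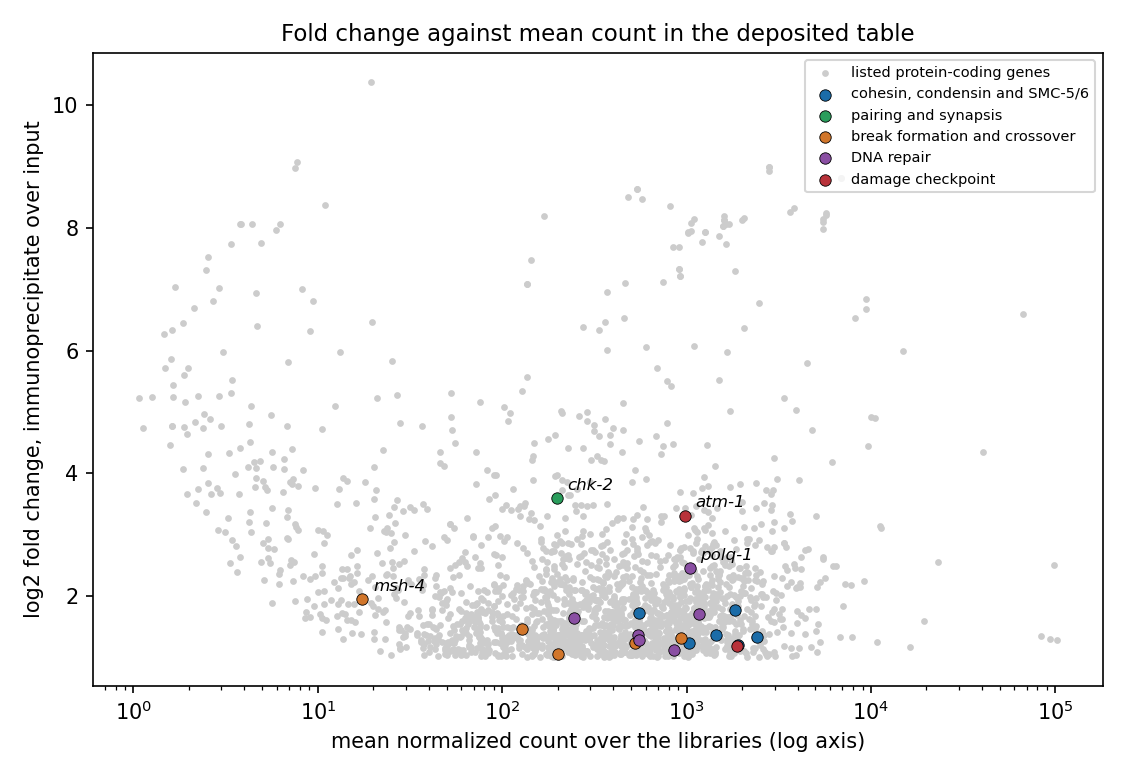
Log2 fold change (vertical axis) against the mean normalized count over the libraries (horizontal axis, log scale) for the 2116 listed protein-coding genes in grey and the listed members in colour. Members lie mostly between 100 and 2409 counts near the lower edge of the cloud, *msh-4* sits apart at 17.5 counts, and *chk-2*, *atm-1* and *polq-1* stand above the other members.

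Listing ran along gene span, the distance from a gene's start to its end with introns. The 18 listed protein-coding members with a position had a median span of 5903 bp and the 39 not listed one of 2725 bp. Of the 28 protein-coding members of 4000 bp or more, 16 were listed, or 57.1%, and of the 29 shorter ones 2, or 6.90%. Protein-coding genes at large showed the same order, with 33.2% of 4317 genes of 4000 bp or more listed and 4.35% of 15666 shorter ones. The axis and *syp* genes are all short, from 1073 to 3428 bp, in a range where few genes of any kind were listed. *atm-1*, at 25105 bp, and *atl-1*, at 10614 bp, are the longest checkpoint members. The cut at 4000 bp was chosen after the values were seen, and *scc-3* at 3989 bp and *rec-8* at 4072 bp lie on either side of it.

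**Figure D4:**
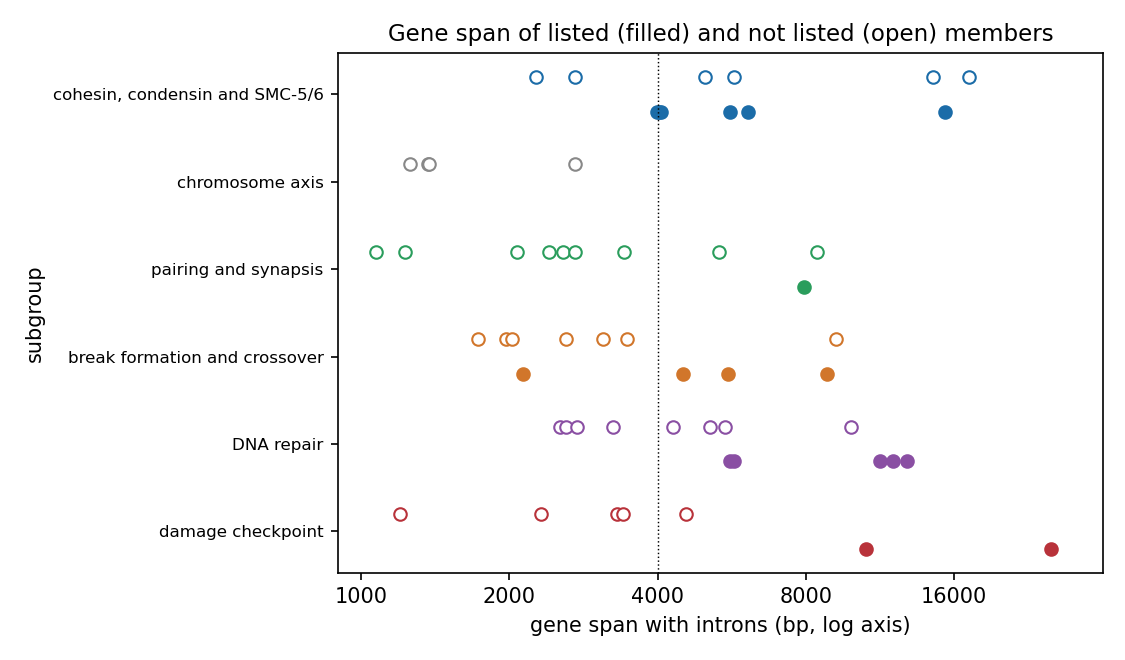
Gene span with introns (horizontal axis, log scale, bp) of the 57 protein-coding members with a position, by subgroup (vertical axis), with listed genes as filled points and genes not listed as open points. Filled points begin at 2134 bp, and 27 of the 39 open points lie below the dotted line at 4000 bp; above it are 12 open points, in every subgroup but the axis.

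Within narrower ranges of span the members can be read against other genes. From 4000 to under 8000 bp, 9 of 16 members were listed, or 56.3%, beside 24.4% of 2853 protein-coding genes. From 8000 to under 16000 bp it was 6 of 10, or 60.0%, beside 44.3% of 1132 genes. From 2000 to under 4000 bp it was 2 of 21, or 9.52%, beside 8.05% of 5700 genes, which is close to the background, and under 2000 bp none of 8, beside 2.24% of 9966 genes. At 16000 bp or more the order was the other way, with 1 of 2 members listed beside 71.1% of 332 genes. The background here contains genes that adults do not express, and no test of these shares was made. Span did not order the cohesin, condensin and SMC-5/6 members: those listed had a median of 4848 bp and those not listed one of 5367 bp. Among the latter were *mix-1* at 17179 bp and *scc-2* at 14475 bp. The other pathway genes of this subgroup, described further on, did differ in span. There the 8 listed had a median of 5786 bp and the 7 not listed one of 1839 bp. Across the 19 listed members with a position, the short *msh-4* pseudogene among them, fold and span had a Spearman's rho of 0.23. Across the 2116 listed protein-coding genes of the same libraries rho was -0.020, but the relation ran both ways: the median log2 fold change was 4.18 under 2000 bp and then 1.56, 1.69, 1.90 and 2.11 in the ranges of rising span. The part of span, transcript length or library preparation in the listing of these genes was not tested, and the reference gives no transcript length.

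**Figure D5:**
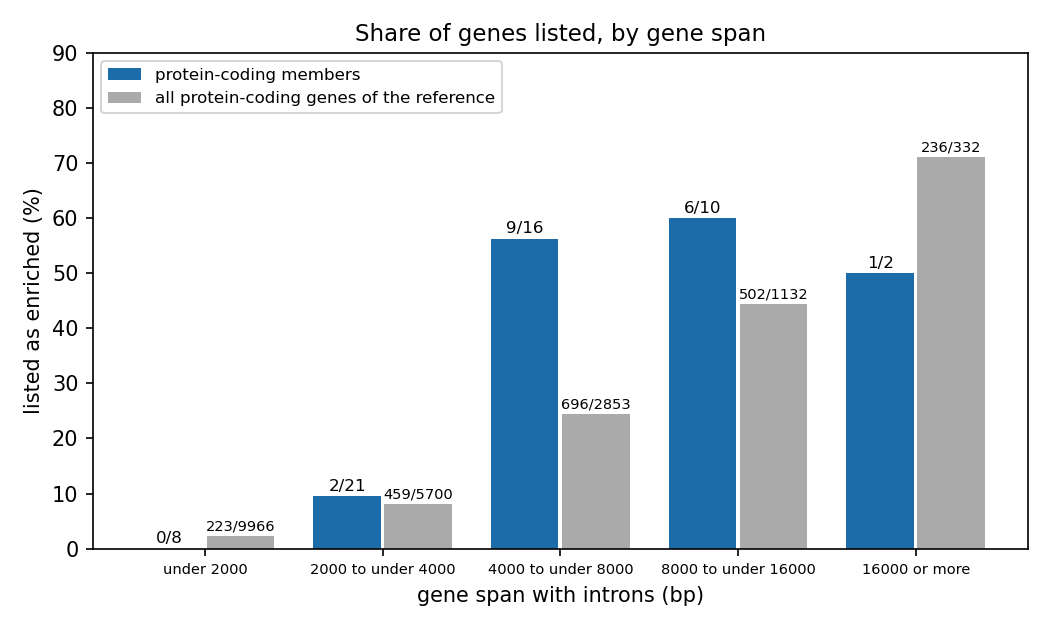
Percent of genes listed as enriched (vertical axis) in 5 ranges of gene span (horizontal axis), for protein-coding members in blue and all protein-coding genes of the reference in grey, with the number listed over the number in the range above each bar. The member bars exceed the grey ones from 4000 to under 16000 bp and rest on 16 and 10 genes.

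A longer list of other genes of these pathways, named from general knowledge of the worm, was read in the same way. It was chosen with earlier results of these data known, so its counts are no independent support for those of the members. Of 88 names 84 were found in the reference, and 24 of the 84 were listed, or 28.6%, again beside 13.4% of all tested genes. The authors' deposited table gives them a median log2 fold change of 1.23. Of the 24, 9 passed the test against 2-fold, beside 46.9% of listed protein-coding genes and 6.64% of all tested genes. The cohesin and condensin subgroup had the largest share, 8 of 15, followed by break formation and crossover with 5 of 15. Pairing and synapsis had 3 of 10, the checkpoint 2 of 10 and DNA repair 6 of 34. *dsb-3* and *rev-3* are in the table under their locus tags, C46A5.5 and Y37B11A.2.

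Several condensin subunit genes were listed. In the authors' deposited table the log2 fold change was 1.96 (SE 0.18) for *dpy-28*, 1.43 (SE 0.13) for *dpy-27* and 1.40 (SE 0.080) for *dpy-26*, which serve the X chromosome, the first and last of them in a general condensin too. *capg-1* had a log2 fold change of 1.11 (SE 0.095) and *hcp-6*, of the other general condensin, one of 1.07 (SE 0.12) in the authors' deposited table. With *smc-4*, 6 of 9 condensin genes, grouped after the values were seen, were listed, and *mix-1*, *capg-2* and *kle-2* were not. Of all tested genes 13.4% were listed. The 6 have spans from 5294 bp (*capg-1*) to 13946 bp (*dpy-28*). Of all protein-coding genes, 24.4% were listed from 4000 to under 8000 bp and 44.3% from 8000 to under 16000 bp. Genes that control cohesin release were listed near the threshold, with log2 fold changes of 1.18 (SE 0.077) for *wapl-1*, 1.12 (SE 0.074) for *evl-14*, the PDS5 gene, and 1.23 (SE 0.13) for *sep-1*, the separase gene, in the authors' deposited table.

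The synapsis genes added little: neither *syp-5* nor *syp-6* was listed, which leaves none of 6 *syp* genes. *cra-1*, needed for synapsis, had a log2 fold change of 1.27 (SE 0.18), *zyg-12*, which ties chromosomes at the nuclear envelope to dynein, one of 1.12 (SE 0.18), and the Polo kinase gene *plk-1* one of 1.06 (SE 0.20) in the authors' deposited table. Of the crossover genes, *cdk-2* had the highest fold but a wide error, with a log2 fold change of 3.51 (SE 0.78) on a mean of 133 normalized counts per the authors' deposited table. *dsb-3*, needed for break formation, had a log2 fold change of 1.20 (SE 0.32) in the authors' deposited table. The topoisomerase gene *top-2* had one of 1.83 (SE 0.16), and *rmh-1* and *rmh-2*, whose products work with the BLM helicase, had 1.07 (SE 0.18) and 1.07 (SE 0.33), beside 1.31 for *him-6*, in the authors' deposited table.

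Of the repair genes outside the members, *xpc-1* and *rev-1* had the highest folds. *xpc-1*, for the damage sensor of nucleotide excision repair, had a log2 fold change of 2.99 (SE 0.22), and *rev-1*, for a polymerase that copies past lesions, one of 2.59 (SE 0.24) in the authors' deposited table. *rev-3*, for the catalytic subunit of another such polymerase, had one of 1.15 (SE 0.14) in the authors' deposited table. *fnci-1*, the partner of *fcd-2* in the Fanconi anaemia pathway, had 1.66 (SE 0.13), the transcription-coupled repair gene *csb-1* had 1.298 (SE 0.12) and *rpa-1*, for a single-strand binding protein, had 1.22 (SE 0.21) in the authors' deposited table. At the checkpoint, *tim-1*, the Timeless-related gene, had a log2 fold change of 1.91 (SE 0.19) and *mus-101*, the TopBP1 gene, one of 1.22 (SE 0.12) in the authors' deposited table.

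In several complexes some genes were listed and their partners were not. Grouped after the values were seen, 4 of 7 cohesin subunit genes, 3 of 4 genes of the BLM helicase group and 3 of 5 Fanconi anaemia genes were listed. The cohesin group leaves out the kleisin gene *coh-1*, which was listed. Of the genes for break-end resection 1 of 5 was listed, and of those for resolving nucleases, counted with *him-18*, 1 of 5. Beside 13.4% of all tested genes, 1 of 5 is near the background. No test was made of these counts. Partners without a value may differ from a listed gene by little, since the table ends at 2-fold. The input is whole-worm RNA, and each fold compares the 5 immunoprecipitates with the 5 inputs. Which cells an enriched RNA came from cannot be told. Whether fewer cells or less RNA per cell lay behind a low count cannot be told apart either.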

How the data were processed

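RNA was sequenced from 5 FLAG immunoprecipitates and 5 inputs, grouped by title. DESeq2 1.12.3, STAR 2.5.2b-0, Bowtie2 2.3.0 and Trim Galore appear in the submitters' processing notes, without roles; how reads were counted, by which strand, and whether folds were shrunk is not given in the sources used here. One file was deposited, and it holds the authors' own comparison, for 2732 genes. Per the file headers it holds a mean signal (mean normalized count), a log2 fold change with its SE, a test score, and raw and adjusted p-values. The deposited p equals the upper normal tail of the score for all 2725 genes with a p above 0, so the authors' test was one-sided. From the adjusted p-values 20328 tested genes and 3494 past 0.01 were recovered; 96.2% of implied ranks were whole within 0.0001. No values per library are given, so depth per sample is unknown, no model was refitted, and p-values may measure technical spread, since the labels do not say whether replicates were separate cultures.

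The test against 2-fold and the 95% intervals use the authors' fold change and SE under a normal distribution (Python 3.11.15, scipy 1.17.1), with Benjamini-Hochberg adjustment over 20328 genes; genes not in the table cannot pass it at 0.01. The calculation was tested on simulated data of 20000 genes. Names were matched to RefSeq's WBcel235 gene table by symbol or locus tag, for 2660 of 2732 names and 58 of 59 members. Members were matched to the table by name, other pathway genes by name or locus tag. Every listed gene of the member list and of the list of other pathway genes is named; *coh-1* and *him-14* were added after values were seen. The members and lists were chosen with earlier results of these data known. Sequences are not shown. Alternatives were stricter thresholds, looser settings of the test against 2-fold, a minimum mean of 100 normalized counts, other name matching, a second assignment to subgroups and leaving out the pseudogene.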

Additional observations from a re-analysis of the deposited data

How the results depend on the processing

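Of the 20 listed members, 19 remained at an adjusted p under 0.001 (11.6% of tested genes), 19 when means under 100 normalized counts were left out (8.24%) and 19 without the *msh-4* pseudogene, an alternative chosen after seeing the data. At 4-fold or more the count was 3, because 17 of the 20 folds lie between 2 and 4. Matching by locus tag and other names left the member count at 20; for the other pathway genes it gave 24, and names alone gave 22. The median log2 fold change was 1.37 under the stricter adjusted p, the minimum mean, the other matching and without the pseudogene, and 3.30 for the 3 members at 4-fold or more. Past the test against 2-fold were 8 members (beside 6.64% of all tested genes), 9 at an adjusted p under 0.05 and 10 when adjusted over the listed genes alone. For the looser settings the share of other genes is not given here, so 9 and 10 have no background to be read against. In the second assignment, which moves *chk-2* to the checkpoint, *him-19* to break formation and *him-6*, *him-18*, *mus-81* and *xpf-1* to repair, pairing and synapsis had 0 listed genes and break formation and crossover had 3. Each of these shifts follows from the construction of the alternative. No paired analysis was possible because the table holds no values per library, and for the same reason no replicate could be left out. Values resting on few counts (*msh-4*, *cosa-1*, *mus-81*, *chk-2*) have the widest errors.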

Other observations

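The members with a position lie on the 5 autosomes and none on the X chromosome, of whose 2730 protein-coding genes 355 were listed. Listed members were spread over the autosomes, with 5 of 14 on chromosome I, 2 of 7 on II, 4 of 12 on III, 4 of 13 on IV and 4 of 12 on V. The *msh-4* pseudogene is among those listed on II. Of all protein-coding genes, a set that leaves pseudogenes out, 14.4% were listed on I, 9.90% on II, 13.8% on III, 10.3% on IV and 6.07% on V. The pairing centre genes *zim-1*, *zim-2*, *zim-3* and *him-8* lie side by side at 10547086 to 10563974 of chromosome IV (WBcel235), and none of the 4 was listed. Spans of 6 of the 19 listed members with a position overlap another gene of the reference. Among them are *polq-1*, which contains the homeobox gene *ceh-10*, and *fcd-2*, which contains Y41E3.8 and a small nucleolar RNA gene. Of the 7 overlapping genes, Y60A3A.29 in *chk-2* alone was listed. Whether reads were assigned by strand is not given in the sources used here.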
